A study of Mus musculus with 2 samples.

Results

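The stearoyl-CoA desaturase cluster is a group of 4 related mouse genes, Scd1, Scd2, Scd3 and Scd4, on chromosome 19. They are 4 of the 21523 protein-coding genes set against the peak list. The locus was selected on its peak positions, because a 100 kb stretch of it held 4 peaks, so the number and closeness of its peaks are described here without a test. The series set out to map where HLF (hepatic leukemia factor), a PAR bZIP transcription factor, binds in Lin-Sca-1+c-Kit+ cells, a population rich in blood stem and progenitor cells. It has 2 anti-FLAG ChIP-seq libraries, 1 from cells given the MigR1 retrovirus labelled 3xFLAG-HLF/HLF and 1 from cells given the empty MigR1 vector. Both came from C57BL/6 mice of 8 to 10 weeks, with blood as the labelled tissue, and both cultures were held for 5 days with SCF, IL-7, Flt3L and IL-3. The factor was therefore introduced by virus and carried a tag, and the labels do not say how many animals were pooled. The peak list analysed was that of the FLAG-HLF library. Peaks of the empty-vector library were not analysed here, so no level in control cells stands beside the values below. The list holds positions and no expression values, so the cell type could not be checked against marker genes.

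Stearoyl-CoA desaturases are enzymes of the endoplasmic reticulum. They place a double bond in saturated fatty acids bound to coenzyme A, which turns stearate into oleate and palmitate into palmitoleate, and they draw electrons for this from cytochrome b5. Monounsaturated fatty acids go into membrane phospholipids, triglycerides and cholesterol esters. Transcription of Scd genes is known, mostly from liver, to answer to SREBP-1c and to the liver X receptors. Scd1 is the main form in mouse liver and fat, Scd2 is prominent in brain, Scd3 in skin and Harderian gland, and Scd4 in heart.

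The list has 3153 peaks, each 400 bp wide and taken at its centre, and 108 of them lay on chromosome 19. All positions are in mm10 (GRCm38). The cluster ran over 204 kb, from position 44203288 to 44407709, in the order Scd3, Scd2, Scd4, Scd1. Counted along increasing coordinates, 7 peaks lay in it or within 100 kb of its outer ends, and 6 of these lay between the outer ends. Of the 7, 5 lay in or within 20 kb of at least 1 Scd gene. Only 1 peak centre, that of the fifth peak, was inside an Scd gene, and that gene was Scd2. Thus 1 of 4 Scd genes held a peak centre in the body, where 6.94% of protein-coding genes did (1494 of 21523; exact 95% interval 6.61 to 7.29%). The cluster was chosen by its peaks, so nothing is read from this share.

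**Figure D1:**
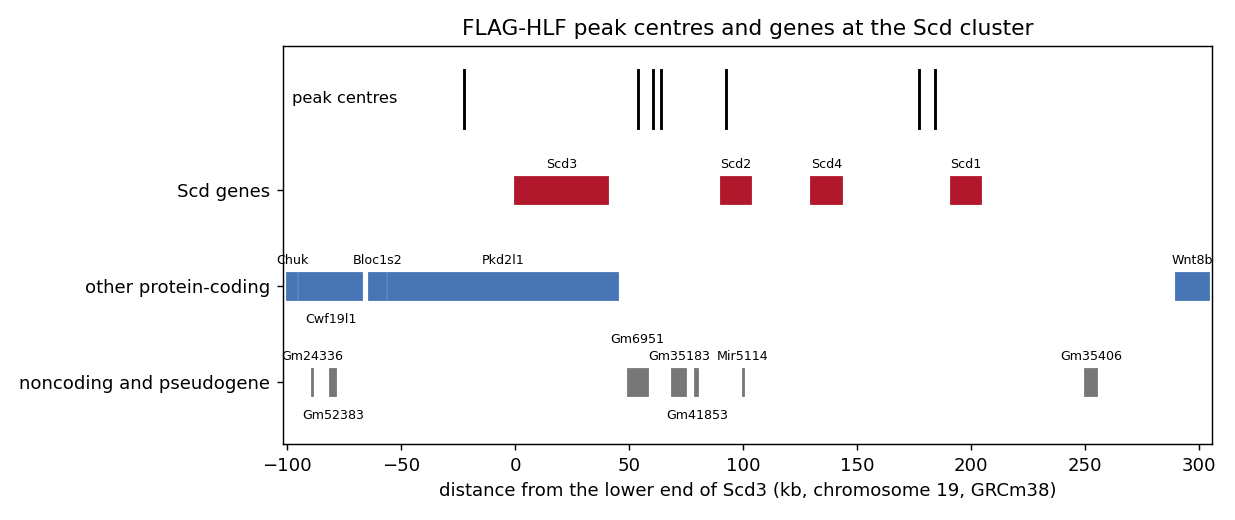
Map of the Scd cluster on chromosome 19, with distance from the lower end of Scd3 in kb on the x axis. Black lines are FLAG-HLF peak centres and boxes are annotated genes, clipped at 100 kb from the cluster; 3 peaks stand between Scd3 and Scd2, 1 stands in Scd2 and 2 stand between Scd4 and Scd1.

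The stretches between and inside the genes held unequal numbers of peaks. The 49.7 kb between Scd3 and Scd2 held 3, and the 47.7 kb between Scd4 and Scd1 held 2. The 26.5 kb between Scd2 and Scd4 held 0, as did the bodies of Scd3, Scd4 and Scd1, which are 40.7, 13.4 and 13.3 kb long. The body of Scd2, at 13.2 kb, held 1. Beyond the cluster, the 100 kb before Scd3 held 1 peak and the 100 kb after Scd1 held 0. With 1 library and no peak heights, a stretch without a listed peak may still hold binding too weak to be listed.

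Scd2 (gene ID 20250; 44293676 to 44306864) was the member with a peak in its body. This peak, at chr19:44295782-44296181, was centred 2.31 kb inside the lower end of the gene. It was the sole peak in or within 20 kb of Scd2, since the next on the lower side was 26.5 kb away. Within 100 kb of Scd2 lay 6 peaks. The annotation places a microRNA gene, Mir5114, inside the same gene interval, and the peak centre lay 7.19 kb from the start of its mature product. That mature sequence is shown because it is the one annotated product within an Scd gene that also holds a peak; it comes from the RefSeq table of GRCm38.p6 (chr19:44303171-44303192, plus strand), and capitals mark the seed, bases 2 to 8.
mmu-miR-5114: aCUGGAGAcggaagcugcaaga

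Scd1 (gene ID 20249; 44394450 to 44407709), the principal desaturase gene of liver and fat, had no peak in its body. Both peaks near it lay on its lower side, at chr19:44387313-44387712 and chr19:44380260-44380659. Their centres were 6.94 and 14.0 kb from the gene. These 2 peaks, 7.05 kb apart, lay within 20 kb of no other annotated gene, coding or noncoding, and their nearest other Scd gene was Scd4 at 40.8 and 33.7 kb. Scd1 was thus the member whose nearby peaks were shared with no other gene at this distance. Within 100 kb it had 3 peaks, the fewest of the 4 genes, since no peak lay on its upper side in that range.

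Scd3 (gene ID 30049; 44203288 to 44244016) lay wholly inside the annotated interval of Pkd2l1, a gene of the polycystin channel family, which extends from 44147637 to 44248328. No peak centre lay in the Scd3 body. The peak at chr19:44256915-44257314 was 13.1 kb past its upper end, and that at chr19:44263466-44263865 was 19.6 kb past it, just inside the 20 kb limit. Just outside the limit were 2 more, at 22.6 kb before the lower end (chr19:44180497-44180896, inside Pkd2l1) and at 23.2 kb past the upper end (chr19:44267008-44267407). Within 100 kb of Scd3 lay 5 peaks. None of the peaks near Scd3 can be given to it alone. The first of the 3 between Scd3 and Scd2 lay in Gm6951, a pseudogene, and the 3 lay 8.79, 15.3 and 18.9 kb from the upper end of Pkd2l1, nearer than to either Scd gene. The third was also 4.97 kb before the annotated start of Gm35183, a long noncoding RNA gene on the plus strand.

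Scd4 (gene ID 329065; 44333326 to 44346743) was the one member without any peak centre within 20 kb. The nearest centres were 33.7 kb above it and 37.3 kb below it, which are the nearer of the 2 peaks beside Scd1 and the peak inside Scd2. Because it sits in the middle of the cluster it still had 6 peaks within 100 kb, as many as Scd2. Scd4 therefore had the fewest peaks of the 4 genes by the narrow limit and shared the highest number by the wide one.

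By the 20 kb limit the counts were 2 peaks for Scd1, 1 for Scd2, 2 for Scd3 and 0 for Scd4. Across protein-coding genes, 15.3% had at least 1 peak by this limit (3294 genes; exact 95% interval 14.8 to 15.8%), and 2.72% had at least 2 (585 genes). By the 100 kb limit the counts were 3, 6, 5 and 6, and the members share most of these peaks with each other. Of protein-coding genes, 36.9% had at least 1 peak within 100 kb, 3.80% had at least 3, 0.274% (59 genes) had at least 5, and 0.0883% (19 genes) had at least 6. These shares place the cluster in the list, and since its peaks led to its choice they carry no weight as evidence.

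**Figure D2:**
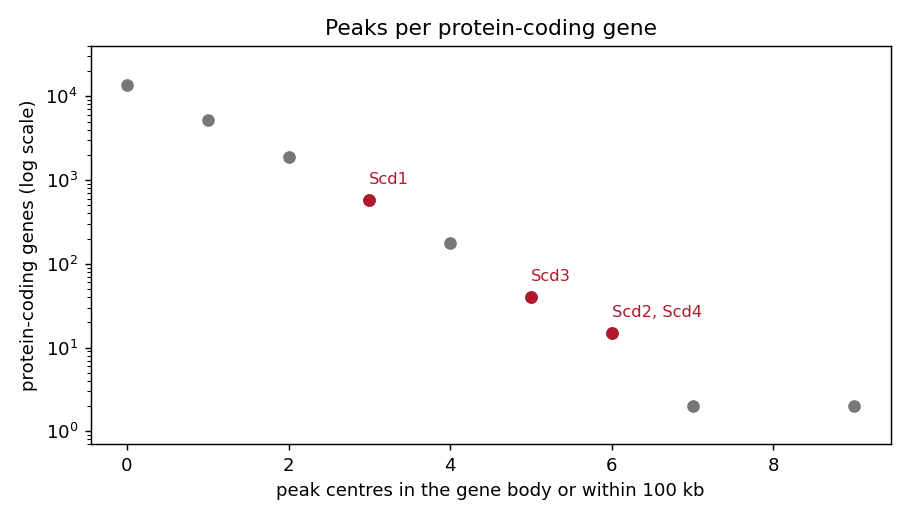
Number of protein-coding genes (y axis, log scale) by the number of peak centres in the gene body or within 100 kb (x axis), with the values of the Scd genes in red. Scd1 is at 3 peaks with 580 genes in all, Scd3 at 5 with 40, and Scd2 and Scd4 at 6 with 15.

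The peaks formed 2 close groups, with 2 single peaks apart from them. The 3 between Scd3 and Scd2 were 6.55 and 3.54 kb from their neighbours, and the pair beside Scd1 was 7.05 kb apart. The peak in Scd2 was 28.8 kb above the group of 3 and 84.5 kb below the pair. The peak before Scd3 was 76.4 kb below the group of 3. Thus 3 of the 6 distances between neighbouring peaks were at most 10 kb, where 185 of the 3133 such distances over the list, or 5.90%, were. The median distance was 17.9 kb at the cluster, against 214 kb on chromosome 19 and 268 kb over the list. The locus was chosen for its close peaks, and only distances between its own peaks were taken. Short distances were thus built in, and nothing is read from them.

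**Figure D3:**
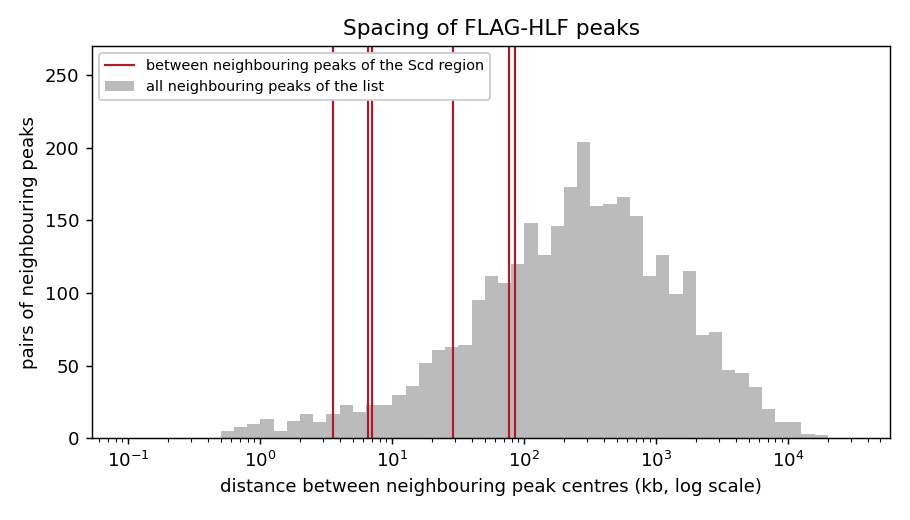
Distances between neighbouring peak centres on a log scale in kb, as a histogram of all 3133 pairs in the list (grey) with the 6 pairs at the Scd cluster as red lines. The red lines run between 3.54 and 84.5 kb, all below the list's median of 268 kb, at a locus chosen for its close peaks.

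On both sides the cluster's peaks were followed by long stretches without a listed peak. The next peak below was 469 kb from the peak in front of Scd3, and the next above was 789 kb from the upper of the pair beside Scd1. The 7 peaks, which spanned 207 kb, were therefore the only ones listed in 1.47 Mb. Distances as long as these 2 were common in the list, at 36.4% and 24.7% of all pairs. The neighbouring protein-coding genes had few peaks apart from Pkd2l1, which had 1 in its body and 4 in all within 20 kb. Bloc1s2, a subunit of a lysosome biogenesis complex, was 34.2 kb from its nearest peak, Cwf19l1 44.8 kb, Chuk, which encodes the kinase IKK-alpha, 73.2 kb, and Wnt8b, a Wnt ligand gene, 106 kb.

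Gene starts and strands were known for Scd3 and Scd4 of the 4 members, both on the plus strand. Entries for Scd1 and Scd2 were not used here, so their 5′ and 3′ ends are not told apart. Neither start was near a peak: the nearest centre was 22.6 kb from the start of Scd3 and 37.3 kb from that of Scd4. The 250 bases before each start are shown as the promoters of Scd3 and Scd4, the members whose starts were known. Capitals mark the 2 longest runs, of 9 bases each, that both promoters hold; they begin 220 and 46 bases before the start in Scd3, and 221 and 32 bases before it in Scd4. The sequences are from RefSeq, GRCm38.p6, plus strand, chr19:44203038-44203287 for Scd3 and chr19:44333076-44333325 for Scd4.
Scd3: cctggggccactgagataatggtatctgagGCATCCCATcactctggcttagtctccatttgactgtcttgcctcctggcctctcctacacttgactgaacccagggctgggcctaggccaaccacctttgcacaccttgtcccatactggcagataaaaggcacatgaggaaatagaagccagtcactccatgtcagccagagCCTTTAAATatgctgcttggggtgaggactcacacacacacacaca
Scd4: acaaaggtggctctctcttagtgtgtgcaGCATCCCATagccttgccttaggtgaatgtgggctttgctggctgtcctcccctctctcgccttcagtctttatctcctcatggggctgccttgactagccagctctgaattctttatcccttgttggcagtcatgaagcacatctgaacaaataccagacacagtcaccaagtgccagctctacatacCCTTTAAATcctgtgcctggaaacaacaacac
PAR bZIP proteins are known to bind TTACGTAA and TTATGTAA. Searched on both strands, these letters occurred in neither promoter, nor in any of the 10 RefSeq promoter windows of 250 bases within 100 kb of the cluster, none of which held a peak centre. They occurred in 0.931% of all 32851 such windows, and in 10 of the 118 windows that held a peak centre (8.47%). The absence of a match says only that these letters are not in these windows. The sequence under the 7 peaks was not used here.

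The tightest run of 4 consecutive peaks at the cluster was made up of the 3 between Scd3 and Scd2 and the peak in Scd2. It spanned 38.9 kb. Over the list, 7 of 3093 runs of 4 were this short or shorter, 47 (1.52%) fitted within 100 kb, and the median was 1391 kb. The locus was chosen for such a run, so its place among the runs carries no weight as evidence. The 5 separate loci with the most similar span, a likeness measured in this 1 library, were named by the protein-coding gene nearest the middle of the run. They were the Strn3 locus with 39.8 kb, B4galt5 with 37.2 kb, Notch2 with 40.8 kb, Gab2 with 36.9 kb and Cdc27 with 35.4 kb. Counting the run and 100 kb to each side of it, the Scd cluster had 7 peaks, the locus near B4galt5 had 6, those near Notch2, Gab2 and Cdc27 had 5 each, and that near Strn3 had 4. The middle of the run lay 17.1 kb from the nearest protein-coding gene at the Scd cluster, 20.8 kb from B4galt5, 1.5 kb from Notch2, and inside Strn3, Gab2 and Cdc27.

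**Figure D4:**
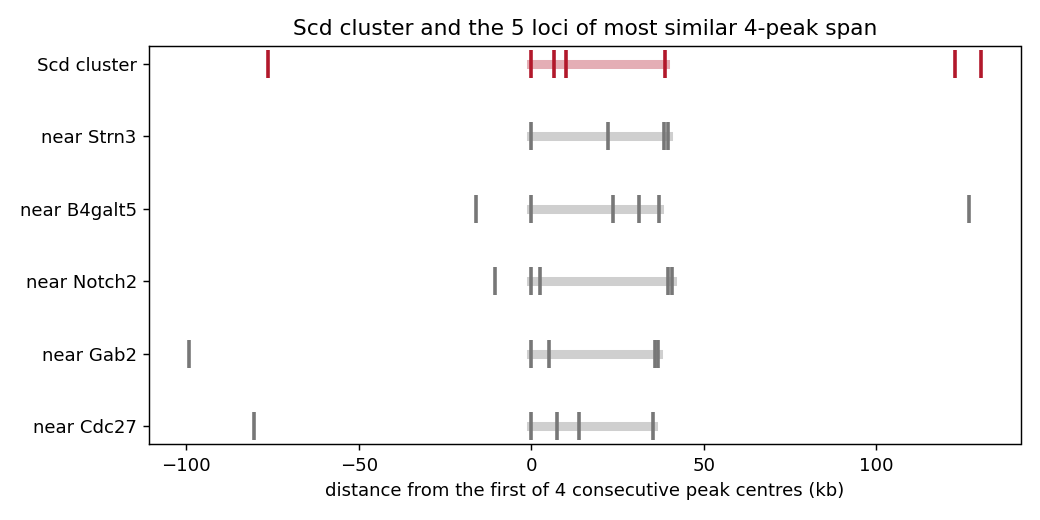
Peak centres (upright marks) at the Scd cluster (red, top row) and at the 5 loci whose tightest run of 4 peaks was most similar in length (grey), in kb from the first peak of the run. The pale bar is the run of 4, and marks beside it are further peaks within 100 kb, of which the Scd cluster has 3.

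The fatty acid desaturase genes Fads1, Fads2 and Fads3, which also form a cluster on chromosome 19, differed from Scd1, Scd2 and Scd3 in the 20 kb counts. No peak centre lay inside any of the 3 Fads genes or closer than 20 kb, as for Scd4. By this limit, 15.3% of protein-coding genes had a peak, so most genes had none. The nearest peak was 189.7 kb from Fads1, 69.6 kb from Fads2 and 47.7 kb from Fads3, and 1 peak lay within 100 kb of Fads2 and of Fads3. The difference was not tested, because the Scd genes were chosen for their peaks and the Fads genes after their values were seen.

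Of 54 other genes of fatty acid synthesis, desaturation and esterification and their regulators, Fads genes included, 12 (22.2%; exact 95% interval 12.0 to 35.6%) lay within 20 kb of a peak or held one, beside the 15.3% of all protein-coding genes. That interval includes 15.3%, and the listed genes were longer, with a median of 38.4 kb against 17.4 kb for all protein-coding genes. Each of the 12 had 1 peak by this limit, whereas Scd1 and Scd3, members of a locus chosen for its peaks, had 2. Among the listed genes of fatty acid synthesis, elongation and desaturation, Elovl2, a fatty acid elongase gene, had a peak 30 bp inside its annotated start. Acss2, which makes acetyl-CoA from acetate, had 1 at 429 bp outside its annotated start. Slc25a1, the mitochondrial citrate carrier, had 1 at 3.19 kb from a gene end and 6195 bp from the nearest annotated start. Acaca, encoding the acetyl-CoA carboxylase of fatty acid synthesis, had 1 at 12.1 kb from a gene end and 77855 bp from the nearest annotated start. Fads6, a gene of the desaturase family, had 1 at 16.7 kb, and the end of another protein-coding gene was nearer to that peak. The other listed genes of fatty acid synthesis, elongation and desaturation had none within 20 kb: Fasn, Acly, Acacb, Me1, Thrsp, Elovl1, Elovl3, Elovl4, Elovl5, Elovl6, Elovl7, Hacd1, Hacd2, Hacd3, Hsd17b12, Tecr, Degs1, Degs2 and the Fads genes above. Cyb5a, Cyb5b and Cyb5r3, genes of cytochrome b5 forms and of a cytochrome b5 reductase, also had none, at 43.8, 178 and 144 kb.

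Among the regulators, both liver X receptor genes had a peak just outside a gene end, Nr1h2 at 503 bp and Nr1h3 at 1.51 kb. These peaks lay farther from the nearest annotated start, at 4852 bp for Nr1h2 and 12486 bp for Nr1h3. In both cases the end of another protein-coding gene was nearer to the peak. Pparg, a lipid-sensing nuclear receptor gene, had a peak inside. Srebf1, the gene of SREBP-1c, and Srebf2 had none within 20 kb, with nearest peaks at 83.0 and 137 kb. The other listed regulators also had none by this limit: Ppara, Rxra, Rxrb, Mlxipl, Scap, Insig1, Insig2, Mbtps1 and Mbtps2. Among the genes that activate or esterify fatty acids, Acsl1, an acyl-CoA synthetase gene, had a peak 976 bp inside its annotated start. Lpin1, a phosphatidate phosphatase gene, had 1 at 226 bp inside a gene end, and Soat1, which makes cholesterol esters, had 1 at 2.40 kb inside its annotated start. Lpcat3, which places unsaturated fatty acids in phospholipids, had 1 at 6.41 kb inside. Acsl3, Acsl4, Acsl5, Gpam, Agpat2, Dgat1 and Dgat2, the rest of that group, had none within 20 kb. The peaks of Acaca, Acss2, Fads6, Lpin1, Nr1h2, Nr1h3 and Slc25a1 also lay in or within 20 kb of 1 or 2 other protein-coding genes. Within 100 kb, 24 of the 54 genes had a peak (44.4%, against 36.9% of all protein-coding genes). The highest count was 3, equal to that of Scd1 and below the 5 or 6 of the other Scd genes. Since the Scd genes were chosen for their peaks and share most of them, nothing is read from this comparison.

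**Figure D5:**
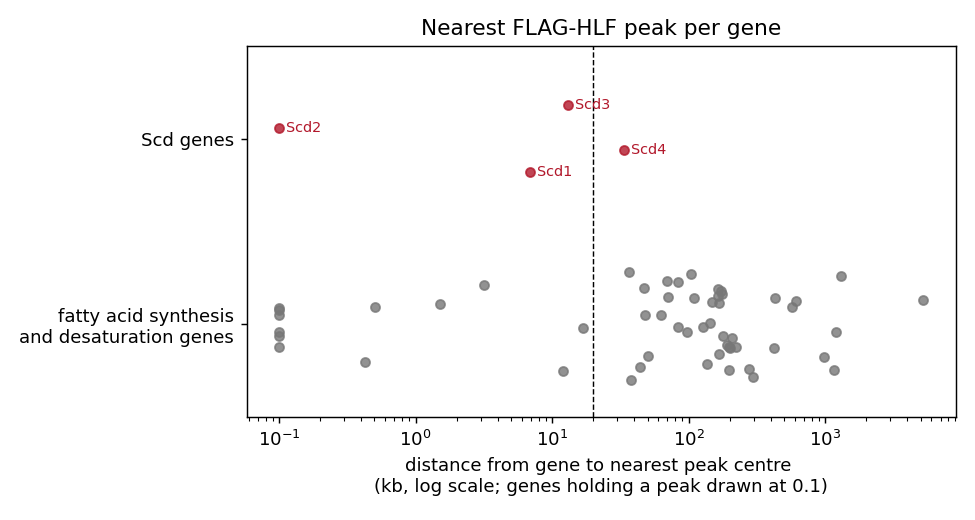
Distance from each gene to its nearest peak centre in kb on a log scale, with the 4 Scd genes in red at the top. Grey points are the 54 other genes of fatty acid synthesis, desaturation and esterification and their regulators. Genes holding a peak are drawn at 0.1 kb and the broken line is at 20 kb. Scd2, Scd1 and Scd3 lie left of the line and Scd4 lies right of it, as do 42 of the 54 genes.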

How the data were processed

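The deposited file for the FLAG-HLF library is a list of 3 columns (chromosome, start, end) with no header. All 3153 intervals are 400 bp wide, with no score. The submitters' processing notes name Bowtie2 2.0.6, MACS2 2.0.10 and mm10, without a role for each. How strict the peak calling was, whether the control entered it and how all peaks came to 1 width is not given in the sources used here. Depth is unknown, and 1 width hides how far enrichment reached. A peak was placed at its start plus 200 bp. Genes came from a RefSeq table of GRCm38.p6 (49214 of 49997 rows used, leaving out Y, the mitochondrial genome, unplaced rows and scaffold coordinates), which gives no exons. All 4 Scd genes and all 54 pathway genes matched by symbol, and 2 Scd genes matched the promoter table. Peaks were counted in gene bodies and within 20 and 100 kb, without tests; the assignment was checked on simulated peaks. Shares carry exact Clopper-Pearson 95% intervals, for counting error only. The named genes are the 4 Scd genes, protein-coding genes within 100 kb of the cluster, genes holding its peaks, pathway genes with a peak within 20 kb, and the 5 loci most alike in the span of 4 peaks; Mir5114, Gm35183, the Fads genes and the pathway genes without a peak were chosen after their values were seen. Members and lists were chosen with earlier results of these data known. Python 3.11.15, numpy 2.4.6, pandas 2.3.3 and scipy 1.17.1 were used.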

Additional observations from a re-analysis of the deposited data

How the results depend on the processing

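Of the 28 alternatives for single Scd genes, 17 kept the count within 1.5 times of the reported one. For the cluster, the 5 peaks in or within 20 kb of any Scd gene became 2 with a window of 10 kb and 1 in gene bodies alone, and 7 with 50 or 100 kb. Scd4 had 0 peaks by 20 kb and 3 by 50 kb, Scd2 had 1 and 4, and Scd3 had 2 and 4, or 0 by 10 kb; a narrower or wider window is the cause by construction. Given to the protein-coding gene with the nearest end, 4 peaks fell to the cluster: 1 to Scd2, 2 to Scd1 and 1 to Scd3. Both peaks within 20 kb of Scd3 then went to Pkd2l1, and the 1 given to Scd3 was the peak 22.6 kb before it. Any overlap in place of the centre, and merging peaks within 1 kb, changed no count for the Scd genes. The span of the peaks was 207 kb, and 130.4 kb within 20 kb of the outer ends, where the peak before Scd3 drops out. The 15.3% of genes near a peak became 10.8% over every annotated gene. The 12 pathway genes became 6 by the gene body (11.1%, beside 6.94% of all protein-coding genes) and 24 within 100 kb (44.4%, beside 36.9%). With each peak given to the nearest gene end they became 9, as Fads6, Nr1h2 and Nr1h3 dropped out. No paired analysis was possible because only 1 library was analysed, and leaving out a replicate could not be done either. Without peak scores, strength could not be weighed.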
